A study of Mus musculus with 2 samples.

Results

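Cytokine mRNA decay factors are the RNA-binding proteins and ribonucleases that shorten the life of cytokine transcripts. Their genes were examined in H3K4me3 ChIP-seq of group 2 innate lymphoid cells (ILC2s) from mouse lung. The 7 genes Zfp36, Zfp36l1, Zfp36l2, Rc3h1, Rc3h2, Zc3h12a and Zc3h12d were taken by symbol from the 22028 protein-coding genes of GENCODE vM21 (GRCm38). Every listed peak that overlapped a gene body or lay within 1000 bp of a transcript start of these genes was kept. One set of peaks came from adult offspring of control mothers, which had been sensitized with PBS and alum and given PBS intranasally. The other came from adult offspring of asthmatic mothers, which had been sensitized with 100 µg OVA (ovalbumin) in alum on days -21 and -7. These mothers were given repeated intranasal doses of 500 µg OVA each between gestation days 4 and 17. Both groups had untreated fathers, and the labels give the offspring as 8 weeks old in one place and 7 to 9 weeks old in another. Each group was a single library of about 3000 sorted ILC2s, so no difference between the groups has a replicate check and no p-value is given for one. According to the study's figure legend, each group came from a single pregnant dam, so the groups cannot be told apart from the litters, and how many offspring were pooled was not given in the sources used here.

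ILC2s reside in the lung mucosa and release IL-5 and IL-13 within hours of an alarmin signal, and the lifetime of these mRNAs limits the output. The ZFP36 proteins bind AU-rich elements in the 3′ ends of transcripts and recruit the CCR4-NOT deadenylase, the roquins (Rc3h1 and Rc3h2) read short stem-loops and recruit the same complex, and Regnase-1 (Zc3h12a) cleaves stem-loop RNAs as an endoribonuclease. H3K4me3, trimethylation of histone H3 at lysine 4, marks nucleosomes around the starts of active or poised genes and carries no information on strand.

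The peak list of offspring of control mothers, hereafter the control list, held 42126 peaks, and that of offspring of asthmatic mothers, the asthmatic list, 51610. The study's reporting summary gives a read total but not one for each library, and the caller's lowest background level, 96.1 and 100.4 fragments per 10 kb, stood in for depth. Among all protein-coding genes, 50.9% had a peak within 1000 bp of a start in the control list and 41.9% in the asthmatic list, although the asthmatic list held more peaks in all. A start peak was present in the control list only for 9.71% of genes and in the asthmatic list only for 0.722%. The sorted cells carried start peaks at 12 of 15 ILC2 marker genes in the control list and 9 of 15 in the asthmatic list. Markers of B cells, macrophages, neutrophils and fibroblasts had none in either list (0 of 6, 0 of 8, 0 of 6 and 0 of 7). T cell markers had 2 of 8 and 1 of 8, epithelial markers 2 of 8 and 1 of 8, and endothelial markers 1 of 6 and 1 of 6. The part of other cells in the values at the decay factors was not tested.

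Start peaks were present at 6 of the 7 decay factors in the control list and at 2 of 7 in the asthmatic list. Rc3h1 and Rc3h2, which encode roquin-1 and roquin-2, had a start peak in both lists. Zfp36, Zfp36l1, Zfp36l2 and Zc3h12a had one in the control list only, and Zc3h12d had none in either. Over the wider rule of gene body or start, Zfp36l1 and Zfp36l2 also kept a peak in the asthmatic list, which made 6 of 7 and 4 of 7, against 58.0% and 51.7% of all protein-coding genes. There were 9 peaks at the members in the control list and 4 in the asthmatic list, of which 4 and 4 overlapped a peak of the other list. Of the peaks at a start alone, 3 of 6 in the control list and 2 of 2 in the asthmatic list overlapped one. Over the strongest start peaks of all protein-coding genes, 77.4% of 9957 in the control list and 96.6% of 8149 in the asthmatic list did so. The count of start peaks turned on the distance allowed. The nearest peak edges inside the limit lay 743 bp (Zfp36) and 858 bp (Zfp36l2) from a start in the control list, and the next one outside it in the asthmatic list lay at 1155 bp (Zfp36l1).

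**Figure D1:**
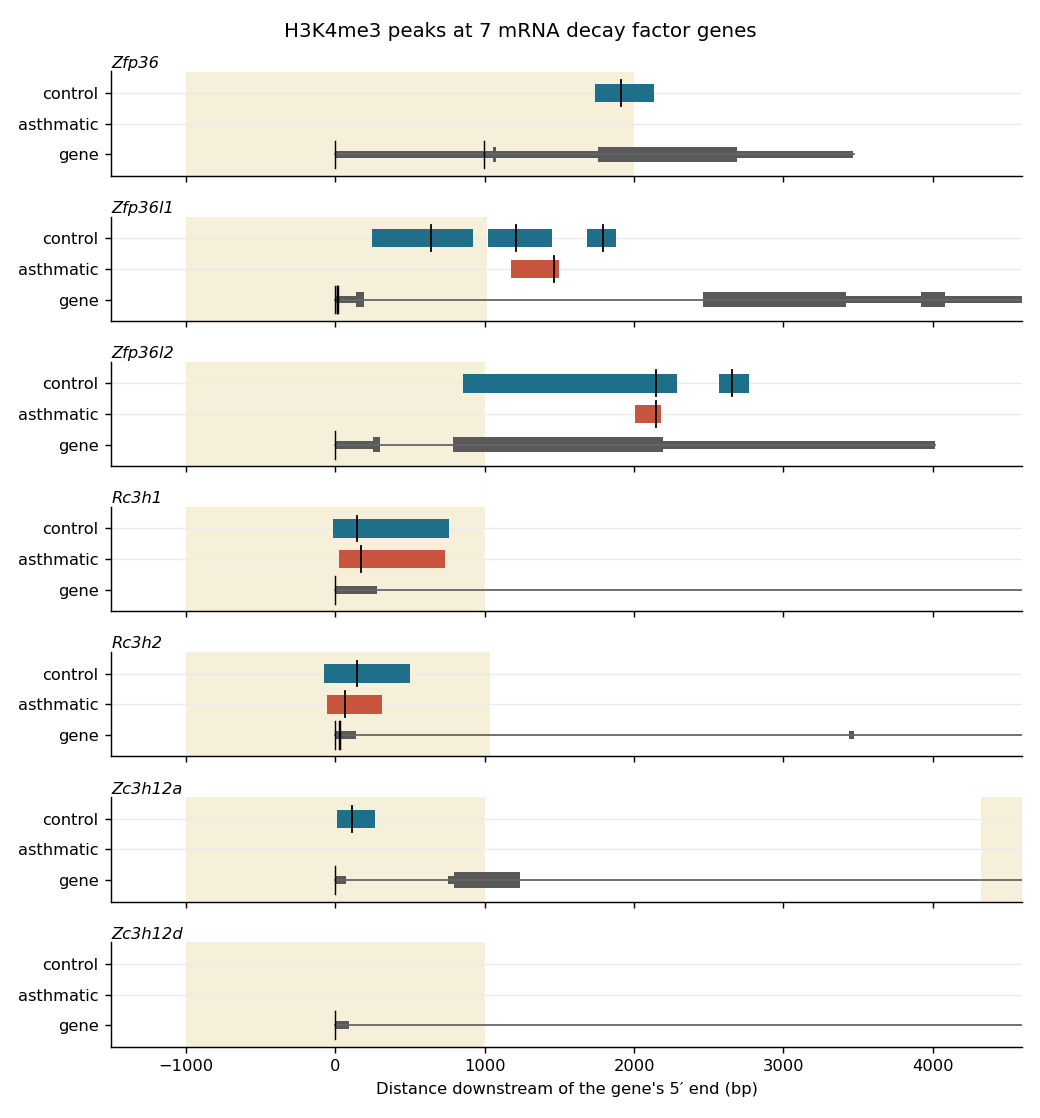
Peaks at the 7 genes by distance downstream of the 5′ end of the gene in bp, with 1 panel per gene. Blue boxes are peaks of offspring of control mothers and red boxes those of offspring of asthmatic mothers, vertical ticks on them are summits, grey blocks are exons (coding parts taller), ticks on the gene line are transcript starts and shading covers 1000 bp either side of a start. The map stops within the longer genes. Peaks of the roquin genes sit on the start or within 28 bp of it in both lists, those of the ZFP36 genes sit downstream of it, and Zc3h12d has none.

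The roquin genes carried peaks on the start or, for Rc3h1 in the asthmatic list, 28 bp downstream of it. At Rc3h1 (ENSMUSG00000040423.10, chr1:160906418-160974978, plus strand) the control peak, chr1:160906400-160907177, was 778 bp wide (fold 7.88, −log10 q 18.7). Fold was read as summit fragments over those of the caller's local background, after 1 was added to both. The asthmatic peak, chr1:160906446-160907155, was 710 bp wide (fold 6.41, −log10 q 8.68). Both summits lay in the untranslated part of exon 1, at 148 and 175 bp downstream of the start, and 91.3% of the wider peak was shared. The Rc3h1 start ranked at the 80.8th percentile of −log10 q among the 11206 genes with a start peak in the control list and at the 59.3rd among the 9227 in the asthmatic list.

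Rc3h2 (ENSMUSG00000075376.10, chr2:37370069-37422903, minus strand) was, of the 2 members with a start peak in both lists, the one whose start ranked higher by −log10 q and by fold in the asthmatic list. By joined width both roquin genes ranked higher there, Rc3h1 at the 61.5th percentile in the control and the 80.6th in the asthmatic list and Rc3h2 at the 39.7th and 43.4th. Its control peak, chr2:37422404-37422978, was 575 bp wide (fold 9.81, −log10 q 19.27). Its asthmatic peak, chr2:37422590-37422957, was 368 bp wide (fold 10.13, −log10 q 18.08). The start stood at rank 1896 of 11206 in the control list (83.1st percentile) and at rank 108 of 9227 in the asthmatic list (98.8th percentile). The −log10 q was thus nearly the same in both lists, while the median over all start peaks was 13.7 in the control and 7.99 in the asthmatic list.

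Joined widths (peaks at most 1000 bp apart counted as 1 domain) could be compared at starts for the roquin genes alone. Both were wider in the control list, by 1.1 times at Rc3h1 and 1.56 times at Rc3h2, but when widths were divided by the smallest peak width of their list the ratio at Rc3h1 was 0.9, the other direction. Of the 9068 genes with a start domain in both lists, 92.2% were wider in the control list and 50.5% by at least 1.5 times, with a median ratio of 1.51. The width difference at Rc3h2 was therefore close to that of the typical gene, and that at Rc3h1 smaller.

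To show the kind of start that held its peak in both lists, that held it in the control list only and that had none, the 250 bases upstream of the RefSeq start are given for Rc3h2 (chr2:37422904-37423153, minus strand), Zc3h12a (chr4:125127882-125128131, minus strand) and Zc3h12d (chr10:7832220-7832469, plus strand). All are from GRCm38.p6 and read 5′ to 3′ along the gene, with CpG dinucleotides in capitals. Rc3h2 and Zc3h12d were chosen for printing after their values were seen.
Rc3h2: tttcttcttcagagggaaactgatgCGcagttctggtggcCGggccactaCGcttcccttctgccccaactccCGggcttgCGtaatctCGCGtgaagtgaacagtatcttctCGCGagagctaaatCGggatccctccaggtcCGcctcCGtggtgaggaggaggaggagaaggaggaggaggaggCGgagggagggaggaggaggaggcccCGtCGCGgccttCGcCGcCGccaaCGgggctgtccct
Zc3h12a: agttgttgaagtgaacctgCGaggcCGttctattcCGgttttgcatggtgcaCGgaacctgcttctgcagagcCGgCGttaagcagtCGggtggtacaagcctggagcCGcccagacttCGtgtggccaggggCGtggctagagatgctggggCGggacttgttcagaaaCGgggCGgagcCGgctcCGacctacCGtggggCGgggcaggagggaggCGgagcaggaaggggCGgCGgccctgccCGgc
Zc3h12d: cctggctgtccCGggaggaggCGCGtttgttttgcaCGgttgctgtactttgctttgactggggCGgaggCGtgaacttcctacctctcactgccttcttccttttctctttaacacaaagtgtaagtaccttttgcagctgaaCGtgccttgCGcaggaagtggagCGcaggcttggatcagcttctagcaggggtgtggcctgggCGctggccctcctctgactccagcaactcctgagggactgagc
These stretches held 20 CpGs at Rc3h2, 21 at Zc3h12a and 10 at Zc3h12d, the start without a peak.

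At the ZFP36 genes the peaks did not cover an annotated start of the gene itself. Zfp36 encodes tristetraprolin, the founding member of the family. Zfp36 (ENSMUSG00000044786.6, chr7:28376784-28380253, minus strand) is annotated with starts at 28380253 and 28379255. It had a single control peak, chr7:28378120-28378512, 393 bp wide (fold 4.16, −log10 q 7.76), at rank 21615 of 42126 peaks. Its summit fell in coding sequence, which is exon 2 of the transcript that starts at 28380253 and the only exon of the one that starts at 28379255, 916 bp downstream of the latter start. In the asthmatic list the closest peak was 8291 bp from the 5′ end of the gene.

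Zfp36l1 (ENSMUSG00000021127.7, chr12:80107754-80113013, minus strand) encodes a paralog that acts on the same kind of AU-rich element. It held 3 control peaks, all with summits in intron 1. The widest, chr12:80112090-80112764, spanned 675 bp and began 230 bp from a start (fold 3.04, −log10 q 6.49). The strongest, chr12:80111563-80111989, spanned 427 bp (fold 3.29, −log10 q 8.00), with an edge 1005 bp from a start and so just outside the limit. The smallest, chr12:80111136-80111325, spanned 190 bp (fold 2.85, −log10 q 5.33). Together they formed a domain of 1629 bp, which ranked 291 of 11206 by width. The asthmatic list held 1 peak of 323 bp in the same intron, chr12:80111517-80111839 (fold 3.58, −log10 q 4.66), at rank 43758 of 51610. The control domain was 5.04 times as wide as this peak. That ratio sets 3 joined peaks, which covered 1292 bp, against 1 peak. The median ratio was 1.51 over genes with a start domain in both lists.

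Zfp36l2 (ENSMUSG00000045817.8, chr17:84183931-84187947, minus strand), the third of the family, had the widest domain of any member. In the control list a peak of 1430 bp, chr17:84185660-84187089 (fold 2.99, −log10 q 7.53), ran across the coding part of exon 2 with its edge 858 bp from the single start. A second peak of 203 bp, chr17:84185178-84185380 (fold 2.54, −log10 q 4.57), had its summit in the 3′ UTR. The joined domain of 1912 bp ranked 99 of 11206 by width. In the asthmatic list a peak of 178 bp, chr17:84185764-84185941 (fold 2.91, −log10 q 3.56), had its edge 2006 bp from the start and ranked 49950 of 51610. Its summit, position 84185801, was the same base as that of the wide control peak, although the control domain was 10.7 times as wide. That domain joined 2 peaks, which covered 1633 bp. Only 12.4% of the wide control peak was covered by the asthmatic peak.

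The stretches around the summits of the strongest control peaks of the ZFP36 genes are given to show what lies under peaks that do not cover a start of the gene itself. They are 121 bases of coding sequence for Zfp36 (chr7:28378279-28378399), 121 bases of intron 1 for Zfp36l1 (chr12:80111743-80111863) and 91 bases of coding sequence for Zfp36l2 (chr17:84185756-84185846), all from GRCm38.p6, 5′ to 3′ on the minus strand, with CpG in capitals.
Zfp36: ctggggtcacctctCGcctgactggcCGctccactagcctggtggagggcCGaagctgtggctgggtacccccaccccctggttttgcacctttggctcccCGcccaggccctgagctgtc
Zfp36l1: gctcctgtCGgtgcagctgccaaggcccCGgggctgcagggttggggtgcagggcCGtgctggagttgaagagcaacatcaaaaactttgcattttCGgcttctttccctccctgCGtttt
Zfp36l2: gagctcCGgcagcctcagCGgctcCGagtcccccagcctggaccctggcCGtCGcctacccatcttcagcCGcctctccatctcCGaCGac
The Zfp36l2 stretch held 8 CpGs, that of Zfp36l1 5 and that of Zfp36 4. None of the peaks at the members had another copy of the 75 bases around its summit on the assembled chromosomes, and repeat-masked bases made up 0 to 18.0% of each, the highest share being at Rc3h1.

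Distances from a start were compared over the genes with a start peak, all of which have a peak within 1000 bp by definition. In the control list the nearest peak edge was over 200 bp from a start for 5.09% and over 700 bp for 0.91%, and it covered a start for 73.3%. In the asthmatic list these shares were 10.4%, 1.6% and 49.1%. The median distance from summit to start was 159 bp in the control list and 164 bp in the asthmatic list. Antisense genes start close to these peaks. Gm44710 starts 468 bp from the Zfp36 peak, and AC132455.1 starts within the wide Zfp36l2 control peak and 8 bp from the asthmatic one. Since the mark carries no strand, peaks of these antisense genes and of Zfp36 or Zfp36l2 cannot be told apart.

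Of the Regnase genes, Zc3h12a (ENSMUSG00000042677.7, chr4:125118423-125127840, minus strand) had a narrow control peak of 259 bp, chr4:125127572-125127830 (fold 5.64, −log10 q 11.51). Its edge was 10 bp from the start and its summit 113 bp downstream, in intron 1. It ranked 10870 of all 42126 peaks, above every ZFP36 peak. The asthmatic list had no peak nearer than 42465 bp. Zc3h12d (ENSMUSG00000039981.6, chr10:7832470-7870396, plus strand), which encodes the related Regnase-4, was without a peak, the nearest being 39117 bp away in the control list and 39293 bp in the asthmatic list. A region below the caller's threshold is not listed, so the absence of a peak is no measurement of absent H3K4me3.

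How often control peaks of like strength had no start peak in the asthmatic list was counted. The members compared were taken because they lacked an asthmatic start peak, so the shares describe other genes and are no test of the members. The intervals treat genes as separate units within a single library per group. Of all 11206 control start genes, 2138 (19.1%, exact Clopper-Pearson 95% interval 18.4 to 19.8) had none in the asthmatic list. Among the genes within 0.5 of Zc3h12a in −log10 q this share was 108 of 724 (14.9%, 12.4 to 17.7). It was 219 of 455 (48.1%, 43.5 to 52.8) for peaks like that of Zfp36, 240 of 419 (57.3%, 52.4 to 62.1) for those like the Zfp36l1 start peak and 327 of 571 (57.3%, 53.1 to 61.4) for those like Zfp36l2. Matched instead on local background, the level of fragments around the peak that is described next (0.8 to 1.25 times that of the member), the share was 55 of 488 (11.3%, 8.6 to 14.4) for Zfp36 and 149 of 1794 (8.31%, 7.07 to 9.68) for Zc3h12a. It was 5 of 25 (20.0%, 6.83 to 40.7) for Zfp36l1 and 1 of 12 (8.33%, 0.211 to 38.5) for Zfp36l2, where few genes were alike. For the ZFP36 genes the comparison thus depended on the match. The share without an asthmatic start peak lay above that of all control start genes by −log10 q. By local background it lay below it for Zfp36, and the intervals for Zfp36l1 and Zfp36l2 included it. For Zc3h12a it lay below by both.

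The fold and p-value of a peak together fix the number of fragments at its summit and the local background the caller compared them with, here given per 10 kb. In the control list the local background was 739 fragments per 10 kb at Zfp36l2 (Poisson 95% interval 687 to 794), 604 at Zfp36l1 (557 to 654), 302 at Zfp36 (269 to 338) and 218 at Zc3h12a (190 to 249). It was 181 at Rc3h1 (156 to 209) and 103 at Rc3h2, against a median of 131 and a 99th percentile of 373 over all start peaks. At Zfp36l2 the level was 7.69 times the lowest level of the list, and only 20 genes with a start peak had a higher one.

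In the asthmatic list the order was the same where both could be read. The local background was 442 fragments per 10 kb at Zfp36l2 (402 to 485) and 312 at Zfp36l1 (278 to 349). It was 116 at Rc3h1 (95.9 to 139) and at the lowest level of 100.4 at Rc3h2, against a median of 107. Set among the start peaks of the asthmatic list, the levels at Zfp36l2 and Zfp36l1 stood at the 99.7th and 99.3rd percentile, although neither peak there is a start peak. After division by each list's lowest level, the asthmatic value was 0.495 times the control value at Zfp36l1, 0.573 times at Zfp36l2, 0.614 times at Rc3h1 and 0.933 times at Rc3h2, whose asthmatic value is the lowest the caller could assign. The median over genes with a start peak in both lists was 0.783 times the control value. Zfp36l1 and Zfp36l2 are not among those genes, and many of them lie at or near the lowest level, so the ratios are given without an order.

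Fragments at the summits spanned a narrower range. In the control list they were 44 at Zfp36l2 (32.0 to 59.1), 40 at Zfp36l1 (28.6 to 54.5), 34 at Rc3h1 (23.5 to 47.5), 28 at both Rc3h2 and Zc3h12a (18.6 to 40.5) and 27 at Zfp36 (17.8 to 39.3), with a median of 26 over all start peaks. In the asthmatic list they were 25 at Rc3h2 (16.2 to 36.9), 22 at Zfp36l2 (13.8 to 33.3), 20 at Zfp36l1 (12.2 to 30.9) and 17 at Rc3h1 (9.9 to 27.2), with a median of 16. The intervals of all 6 control summits overlap, and an order of the members by summit count was not tested. The intervals cover counting error only.

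**Figure D2:**
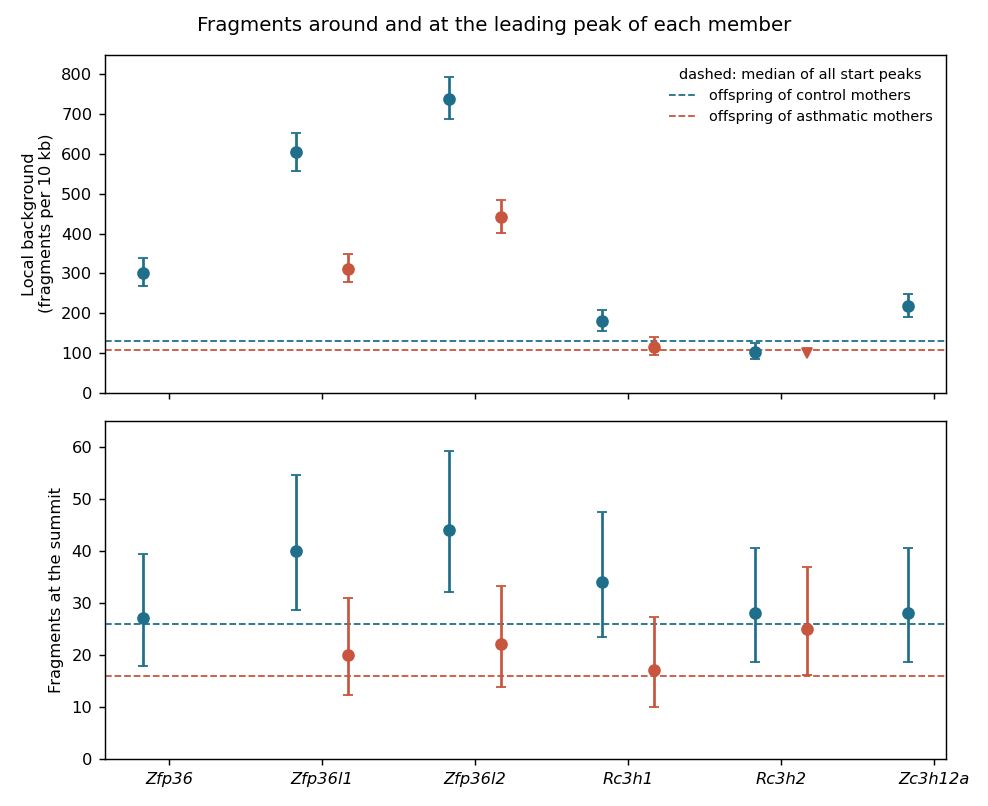
Local background in fragments per 10 kb (top) and fragments at the summit (bottom) of the strongest peak of each member with a peak, in offspring of control (blue) and asthmatic (red) mothers. Points are single libraries, bars are Poisson 95% intervals, the triangle is a value at the lowest level of its list, and dashed lines are the medians over all start peaks (131 and 107 per 10 kb, 26 and 16 at summits). Zfp36l1 and Zfp36l2 stand far above both medians in the top panel and much less so in the bottom one.

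Ranks of the same peak therefore depended on the measure. Zfp36l2 stood at the 99.1st percentile of joined width and the 99.8th of local background in the control list, but at the 12.2nd of −log10 q and the 0.156th of fold. Zfp36l1 stood at 97.4 and 99.8 against 8.12 and 0.165. Zfp36 was high in local background alone (97.8), with 17.2 for width, 12.9 for −log10 q and 1.95 for fold. Zc3h12a likewise reached 92.0 for local background and 34.0, 17.9 and 5.39 for −log10 q, fold and width. Rc3h2 showed the reverse order, with 91.6 for fold and 20.8 for local background in the control list and 99.3 and 29.4 in the asthmatic list. Rc3h1 lay between 61.5 and 82.9 on all 4 measures in the control list. Fold and local background are not independent, because the background is the divisor of the fold. Over all control start peaks in 10 equal parts by local background, the median fold was lowest, at 5.57, in the part with the highest background, and was not ordered by background over the others, where it lay between 6.64 and 7.94. The median width of the part with the highest background was 1109 bp.

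**Figure D3:**
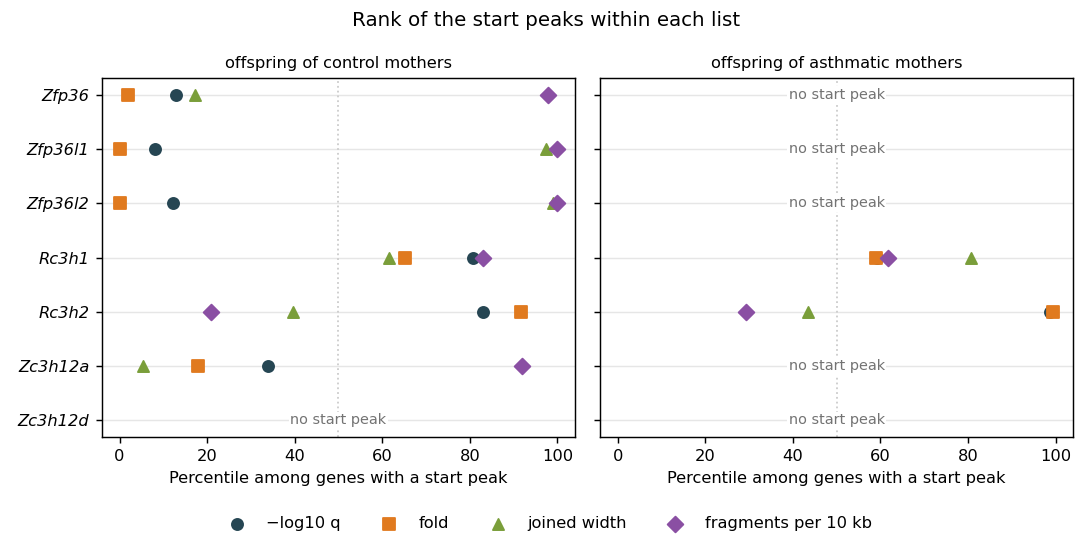
Percentile of each member among all genes with a start peak in the same list (x axis, 0 to 100), by −log10 q, fold, joined width and local background per 10 kb, for offspring of control mothers (left, 11206 genes) and of asthmatic mothers (right, 9227 genes). In the control list the 3 ZFP36 genes sit at 97.8 or above for local background and at 1.95 or below for fold, whereas Rc3h2 sits at 20.8 and 91.6.

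The promoters of the members (250 bases before to 50 after the RefSeq start, 6 of 7 genes with an entry) were compared with 20150 promoters. CpG frequency, as observed over expected, was 0.901 at Rc3h1, 0.859 at Zc3h12a, 0.84 at Zfp36l1, 0.787 at Rc3h2, 0.699 at Zfp36 and 0.403 at Zc3h12d, with a median of 0.588 over all. Genes in the lowest 25% by CpG frequency had a control start peak in 9.71% of cases and those in the highest 25% in 89.0%, with 7.5% and 77.5% in the asthmatic list. The member without a peak was thus the one below the median, while the 3 control-only members with an entry were above it. Both strands were searched for short motifs, except that the NF-kappaB motif was searched at the members on the strand of the gene alone. The GC box GGGCGG occurred 6 times at Rc3h1, 5 times at Zc3h12a and once each at Zfp36 and Zc3h12d, and was present in 47.8% of all promoters. TATAAA was found at Zfp36l1 (12.1% of all promoters), and the AP-1 motif TGANTCA at Zfp36l1 and Rc3h1 (7.0%). The cyclic AMP response element TGACGTCA (2.31%) and the GATA motif AGATAA (9.45%) were not among the letters of these 6 windows. The NF-kappaB motif was not found on the gene strand of these windows, and its 9.43% over all promoters counts both strands. A match is a description of the letters and no evidence of binding.

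The remaining genes of these families were examined as well. Zc3h12c, encoding Regnase-3, had a start peak in both lists, 866 bp wide with a −log10 q of 10.63 in the control list and 716 bp with 13.97 in the asthmatic list. Its percentile was 28.2 and 93.9, so Zc3h12c, like Rc3h2, ranked higher by −log10 q in the asthmatic list. Zfp36l3 had no peak. Zc3h12b had no start peak, and its 7 control and 10 asthmatic peaks in the gene body were 100.0% repeat-masked with 23 to 8136 other copies of the summit sequence and are not described further.

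The decay machinery that these factors recruit was marked almost completely. All 12 genes of the CCR4-NOT complex, which removes poly(A) tails, had start peaks in both lists, with medians of 998 and 506.5 bp. Cnot6l, a catalytic subunit, was the widest in both (1463 and 1396 bp), followed by Cnot2 in the control list (1359 bp) and Cnot7 in the asthmatic list (1069 bp). All 9 decapping and 5′-to-3′ decay genes were likewise marked in both lists, with Ddx6, a helicase that links deadenylation to decapping (1727 and 1450 bp), and Lsm14a (1519 and 1124 bp) as the widest. The 8 other RNA-binding proteins examined, among them the mRNA-stabilizing Elavl1, also had start peaks in both lists. Hnrnpd (1409 bp) and Elavl1 (1084 bp) were the widest of these in the control list, and Elavl1 (963 bp) was the widest in the asthmatic list.

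Among the other deadenylases and BTG/Tob adaptors, 8 of 9 genes had a control start peak and 5 of 9 an asthmatic one. Pan2, Parn and Btg1 were in the control list only. Btg1, which tethers deadenylases to mRNAs, resembled Zfp36l1 and Zfp36l2 in its values, with a domain of 2602 bp, a local background of 536 fragments per 10 kb (99.7th percentile) and a low fold (2.95, with −log10 q 5.35). Btg2 was the next widest in the control list at 1615 bp and measured 836 bp in the asthmatic list, where Pan3 was the widest at 1170 bp. Among the regulators and partners of the decay factors, 8 of 9 and 7 of 9 had start peaks. Arid5a, which protects stem-loop transcripts from Regnase-1, was in the control list only (1419 bp, −log10 q 8.9). Nufip2, a roquin cofactor, was the widest in both lists (1511 and 1522 bp), and Otud4 the second in the asthmatic list (1053 bp).

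The cytokine and activation genes, several of which give rise to mRNAs cleared by these factors, were counted in the same way. Of 23 genes, 9 had a control start peak (39.1%) and 7 an asthmatic one (30.4%), with none at Il13 in either list. Il4 and Il5 had narrow control peaks of 193 bp each (−log10 q 5.63 and 5.19) and Myc a domain of 1178 bp (−log10 q 9.04), and none of these genes had a start peak in the asthmatic list. Tnf had a start peak in the asthmatic list only (175 bp, −log10 q 4.95). Nfkbid (1849 bp) and Nfkbiz (1510 bp) were the widest in the control list and measured 229 and 534 bp in the asthmatic list, where Il1rl1, the receptor subunit ST2, was the widest at 625 bp. Over all these lists, including the family genes above, 55 of 73 genes (75.3%) had a control start peak and 49 of 73 (67.1%) an asthmatic one. The decay factors had 6 of 7 and 2 of 7, against 50.9% and 41.9% of all protein-coding genes, and with 7 genes and 1 library per group this difference was not tested. Their place relative to all genes was not stable. With the 10000 strongest peaks of each list they had 2 of 7 and 1 of 7, against 32.2% and 9.32%, which is below and then above, and by gene body or start they were above in both lists.

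**Figure D4:**
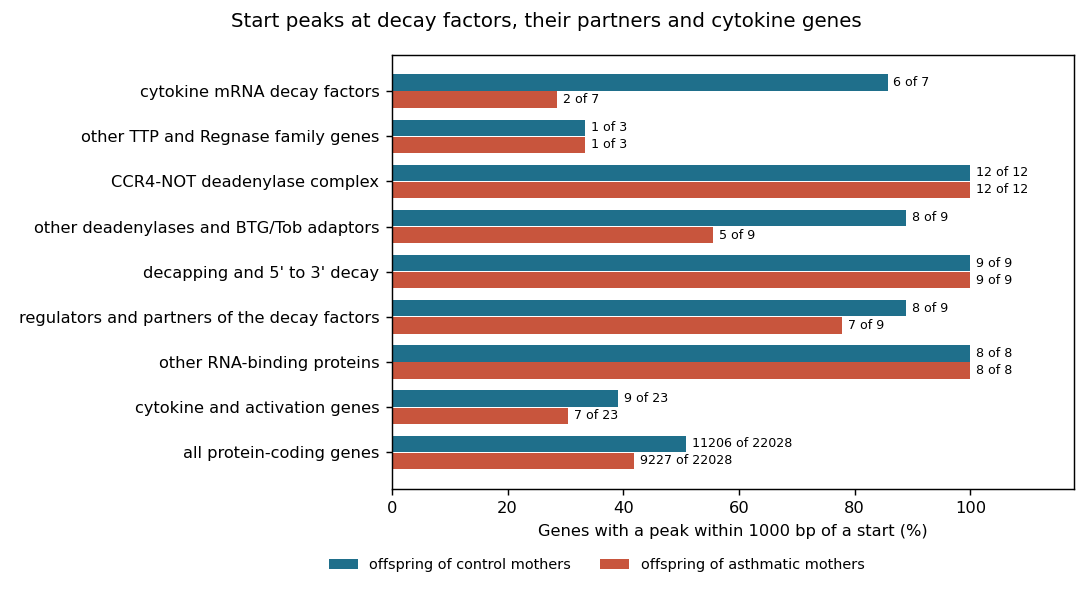
Share of genes with a peak within 1000 bp of a start (x axis, percent, from 0) in offspring of control (blue) and asthmatic (red) mothers, for the 7 decay factors, the lists of partner and cytokine genes and all protein-coding genes, with the counts beside each bar. The CCR4-NOT, decapping and other RNA-binding protein lists are at 100.0% in both groups, while the decay factors go from 6 of 7 to 2 of 7.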

How the data were processed

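H3K4me3 CATCH-seq, a carrier-assisted native ChIP-seq for few cells, was deposited as 1 peak list per group. Per the labels, reads were processed with Trim Galore, cutadapt, Bowtie2, SAMtools and deepTools on mm10. The reporting summary names MACS2 for ATAC-seq alone and says that the ChIP-seq reads were not used for peak calls, although lists were deposited. The caller and threshold of these lists were not given in the sources used here. Part of each lysate was set aside to make an input library, and whether it served as a control for the peaks was not stated either. The deposited score is 10 times the −log10 q, and the authors' −log10 p and −log10 q are p-value and q-value scales. The deposited fold was read as a ratio of summit to background with 1 added to each. The smallest −log10 q was 2.02 in the control list and 2.01 in the asthmatic list. The deposited summit offset was added to each peak start.

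Positions were counted from 1. Peaks within 1000 bp of any transcript start of a gene counted as start peaks, those at most 1000 bp apart were joined, and the strongest by −log10 q gave each gene's rank. Summit fragments and background were solved from fold and −log10 p under a Poisson model that assumes no control. Background in the fold was counted over the smallest peak width of each list, 190 bp in the control and 156 bp in the asthmatic list. Both values are derived, not the authors'. This solution and the peak assignment were tested on simulated data and recovered 1787 of 1787, 1840 of 1840 and 500 of 500 cases. Intervals are 95% and cover counting error only. Ranks were taken within a list. Widths, strengths and background are also set side by side or as ratios between the lists, which are not scaled to each other. Python 3.11.15, pandas 2.3.3 and scipy 1.17.1 were used.

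The members, gene lists and choices were made with earlier results of these data known. The named genes were all members and family genes, genes starting near a member's peak, and in each list the genes with a start peak in 1 group only and the 2 widest. One gene that this rule names is not reported here. The local background of Btg1 and the absence of a peak at Il13 were added after their values were seen.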

Additional observations from a re-analysis of the deposited data

How the results depend on the processing

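No paired analysis was possible because each group had a single library. Counts, medians and single values were taken as unchanged within 1.5 times, and 103 of 133 alternative values were. Start-peak counts at the decay factors were 4 to 6 in the control list and 2 to 3 in the asthmatic list with limits of 500 and 2000 bp, the 5′ end alone, starts of protein-coding transcripts or a −log10 q of at least 5. When each list was cut to its 10000 peaks of highest −log10 p, 2 and 1 members kept a start peak, as did 32.2% and 9.32% of protein-coding genes and 14 of the pathway and cytokine genes in the asthmatic list. Counting gene bodies, chosen after seeing the data, gave 4 members in the asthmatic list. Divided by the smallest peak width of its list, 1 member (Rc3h2) was wider in the control list instead of 2, with Rc3h1 at a ratio of 0.9. The median percentile of the members was 23.4 in the control list by −log10 q, 9.93 by fold, 50.6 by width and 78.1 among genes in both lists, where only the roquin genes are left. Ranked by local background, also chosen after seeing the data, it was 94.9, and 45.5 in the asthmatic list against 79.0 by −log10 q. With a −log10 q of at least 5, 2 member peaks of each list overlapped the other list. Among single genes, 16 of 70 values moved, all of them percentiles except the Zfp36l1 domain, whose widest single peak was 675 bp. With 1 library per group, differences in depth, enrichment or caller settings between the lists cannot be told apart from the groups.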
